A study of Mus musculus with 12 samples.

Results

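The DNA damage checkpoint genes described here are the kinases Atr and Atm, which sense damaged or stalled DNA, their effector kinases Chek1 and Chek2, the p53 inhibitor Mdm2, and the damage-induced genes Cdkn1a, Gadd45a and Sesn1. They were chosen by gene symbol from a list of 9, and the level of a gene was read from the probe set with the highest mean over all arrays. Of the 9, 8 had a probe set in the annotation used, out of 18194 genes with one. Trp53 is not analysed here. The test covered 9307 genes, those that reached 4 on the log2 scale on 2 arrays or more, and 7 of the 8 were among them. Cdkn1a lay below that filter. On GRCm38.p6 the genes lie at chr9:95857597-95953217 (Atr), chr9:53437122-53536828 (Atm), chr9:36708482-36726658 (Chek1), chr5:110839800-110874140 (Chek2), chr17:29090979-29100722 (Cdkn1a), chr10:117688875-117710758 (Mdm2), chr6:67035096-67037407 (Gadd45a) and chr10:41810574-41908436 (Sesn1).

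Splenic B cells from female C57BL/6 mice aged 10 weeks were profiled on 12 Affymetrix arrays, with 2 arrays in each of 6 groups. Marginal zone (MZ) cells were the B220+AA4.1-CD21highCD23low fraction and follicular (FO) cells the B220+AA4.1-CD21intCD23+ fraction. For each cell type there were mice with 2 floxed Bcl6 alleles, mb1-cre(+/-)Bcl6(flox/flox) (Hom), mice with 1, mb1-cre(+/-)Bcl6(+/flox) (Het), and mice with none, mb1-cre(+/-)Bcl6(+/+) (WT). All groups, the WT groups included, therefore carried 1 mb1-cre allele, which drives Cre from an early B lineage gene, before the MZ and FO stages. Before sorting, cells that bound antibodies to a set of surface proteins were removed magnetically. These proteins included CD95, the product of Fas, as well as CD43, CD138, Gr-1 and CD3. The labels leave unsaid whether the 2 arrays of a group hold RNA of different mice, and whether MZ and FO cells were sorted from the same mice. The p-values below therefore reflect only the spread among these samples, and that spread may be technical.

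In the checkpoint, ATR answers to single-stranded DNA at stalled replication forks and acts mainly through CHK1, while ATM answers to double-strand breaks and acts mainly through CHK2. Both branches stabilise p53, which induces its own inhibitor MDM2 together with the cell cycle inhibitor p21 (Cdkn1a), the stress sensor GADD45A and sestrin 1. BCL6 is a transcriptional repressor that germinal centre B cells need, and in those cells it is known to repress several of these genes, including Atr, Chek1 and Cdkn1a. The arrays show the same genes in naive cells, which divide rarely.

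Stretches of RefSeq sequence (GRCm38.p6) are shown for the genes described most closely below, each read 5′ to 3′ on the strand of its gene, with the letters of a searched motif in capitals. For Chek1 the stretch is chr9:36726609-36726638 (minus strand), 30 bases downstream of the transcription start, and the capitals mark an E2F core. For Gadd45a it is chr6:67037408-67037657 (minus strand), the 250 bases before the start, and the capitals mark the octamer on either strand. For Cdkn1a it is chr17:29090729-29090978 (plus strand), the 250 bases before the start, and the capitals mark a p53 core.
Chek1: cagcatgacgcaagcaggttttGGCGGGAA
Gadd45a: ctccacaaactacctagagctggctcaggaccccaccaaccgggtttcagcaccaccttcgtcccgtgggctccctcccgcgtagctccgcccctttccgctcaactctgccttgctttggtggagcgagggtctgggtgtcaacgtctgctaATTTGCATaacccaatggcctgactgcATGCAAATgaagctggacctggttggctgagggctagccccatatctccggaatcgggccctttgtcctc
Cdkn1a: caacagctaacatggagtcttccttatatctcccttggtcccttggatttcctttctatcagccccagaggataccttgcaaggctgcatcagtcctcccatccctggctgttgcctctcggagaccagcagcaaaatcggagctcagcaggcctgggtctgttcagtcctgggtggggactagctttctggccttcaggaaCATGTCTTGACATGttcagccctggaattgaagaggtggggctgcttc
Motifs were searched on both strands in windows from 250 bases before to 50 after each start, 10 windows for these 8 genes and 32841 in all. They were chosen with these windows in view. The E2F core GGCGGGAA was in 2.189% of all windows and, among the checkpoint genes, in that of Chek1, where it began at base 43 after the start. The octamer ATGCAAAT was in 1.736% of all windows and in that of Gadd45a, with ATGCAAAT beginning at position -70 from the start and its reverse complement ATTTGCAT at position -97. The p53 core, 2 copies of CATG spaced by any 6 bases, was in 0.713% of all windows and in that of Cdkn1a, beginning at position -48. The core TTCNNNGAA, part of the sequence that BCL6 binds, was in 8.298% of all windows and in 0 of the 10 windows of these genes. No 2 of these matches overlapped. A match describes the letters of the window, does not show whether a protein binds there, and is drawn on for nothing below.

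The arrays were checked first for identity and quality. Bcl6 had 2 probe sets. The 1 with the lower signal was at 2.36 and 2.48 on the FO Hom arrays, 4.93 and 4.86 on the FO Het arrays, and 4.94 and 5.61 on the FO WT arrays, and at the minimum of 2.22 on all 6 MZ arrays. The other was at 9.95 and 10.37 on the MZ Hom arrays against 8.29 and 8.81 on the MZ WT arrays, and at 12.70 and 12.88 on the FO Hom arrays against 11.95 and 11.65 on the FO WT arrays. Which exons either one covers is not stated in the labels or annotation, so neither checks the genotypes. Fcer2a, which encodes CD23, was at 8.85 to 9.5 on the MZ arrays and 13.63 to 14.25 on the FO arrays, and the mean of 4 MZ markers was 12.75 to 13.50 on the MZ arrays and 9.16 to 9.90 on the FO arrays. The mean of the 3 germinal centre markers measured, of 4 listed, was 2.59 to 2.82 on the MZ arrays and 2.23 to 2.91 on the FO arrays. All 3 T cell markers and the 1 NK cell marker measured were within 0.5 of the minimum on every array. The 3 neutrophil markers averaged 6.22 and 7.45 on MZ Hom replicate 1 and MZ WT replicate 1, and 8.72 and 6.26 on FO Hom replicate 1 and FO Het replicate 1, against 2.32 to 2.38 on the other arrays. The means of the macrophage or monocyte and of the plasma cell markers were higher on replicate 1 in every group. For macrophages they were 3.45 to 4.81 on replicate 1 and 2.71 to 3.46 on replicate 2. For plasma cells they were 4.52 to 5.84 and 3.91 to 4.42. The dendritic cell mean was 3.41 to 4.68 and the erythroid mean 4.38 to 6.10 over all arrays. MZ WT replicate 1 stood apart in RNA quality: its Gapdh 3′ minus 5′ control difference was 6.90, and that of the remaining 11 lay between -0.20 and 0.63. For the checkpoint genes, results that use this array are given without it where that changes a call or the size of a called difference. Differences of other single genes are given with it included.

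**Figure D1:**
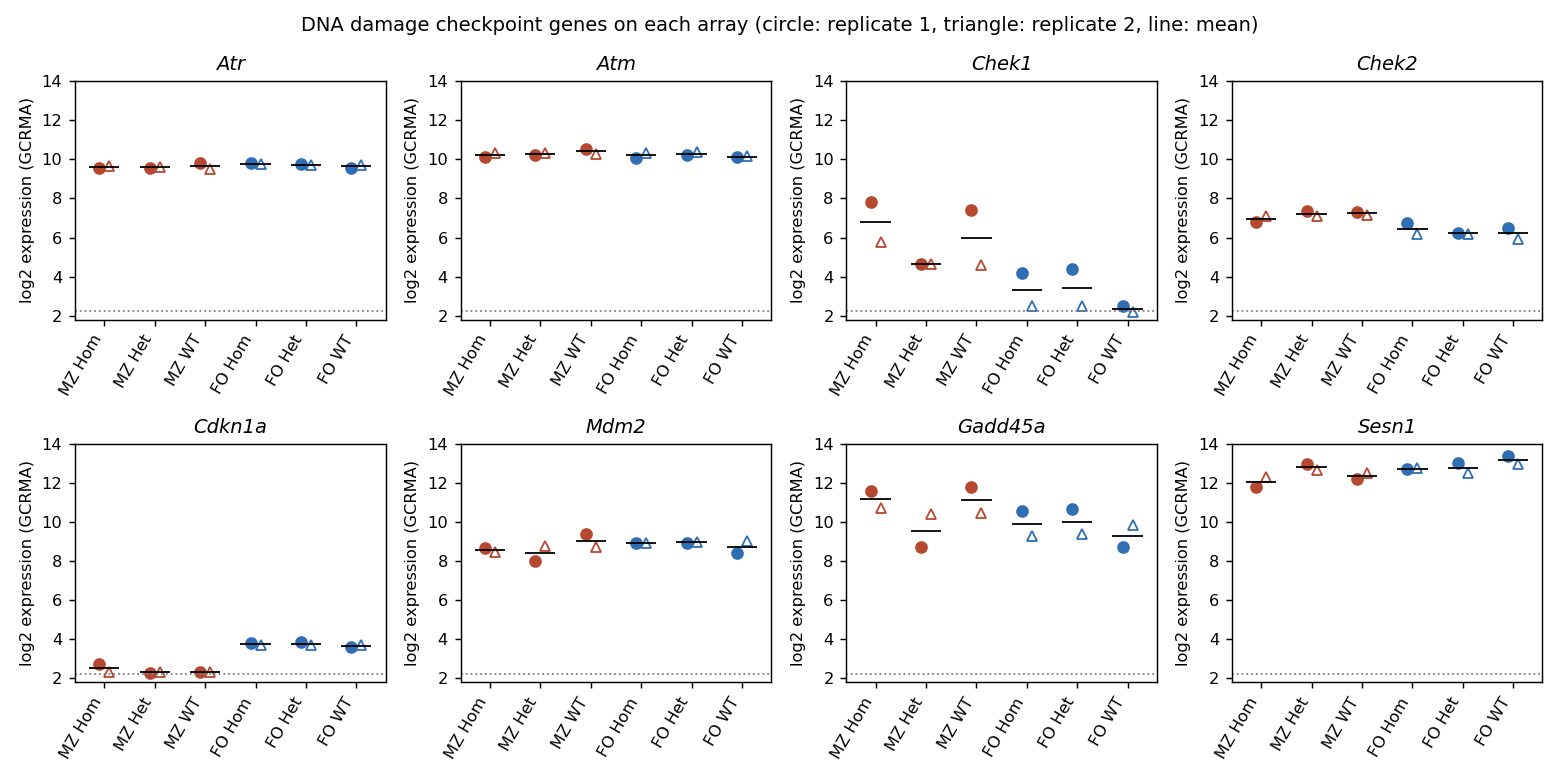
Log2 expression (vertical axes, GCRMA) of the 8 checkpoint genes on the 12 arrays, by group (horizontal axes, MZ in red and FO in blue; circles are replicate 1, triangles replicate 2, lines the mean of 2 arrays, and the dotted line the minimum of the values). Atr and Atm stay between 9.53 and 10.55 on every array, Chek1 spans 2.21 to 7.79, and Cdkn1a lies close to the minimum on the MZ arrays.

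By their highest-mean probe sets, the sensor kinases were nearly level over the 6 groups. Atr was at 9.54 and 9.65 on the MZ Hom arrays, 9.56 and 9.61 on the MZ Het arrays, 9.83 and 9.53 on the MZ WT arrays, 9.79 and 9.76 on the FO Hom arrays, 9.75 and 9.71 on the FO Het arrays, and 9.57 and 9.71 on the FO WT arrays. Its 6 group means spanned 0.19 log2 units, less than the gap of 0.31 between the 2 MZ WT arrays. Atm was at 10.13 and 10.33 on the MZ Hom arrays, 10.21 and 10.33 on the MZ Het arrays, 10.55 and 10.26 on the MZ WT arrays, 10.08 and 10.33 on the FO Hom arrays, 10.20 and 10.35 on the FO Het arrays, and 10.11 and 10.15 on the FO WT arrays. Its group means spanned 0.27, again less than the gap of 0.29 between the MZ WT arrays. The 2 other Atr probe sets ranged over 8.08 to 9.65 and 7.57 to 8.31, and the other Atm probe set over 9.34 to 10.10.

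The effector kinases were higher in MZ than in FO cells. Chek1 was at 7.79 and 5.79 on the MZ Hom arrays, 4.67 and 4.66 on the MZ Het arrays, 7.41 and 4.59 on the MZ WT arrays, 4.19 and 2.48 on the FO Hom arrays, 4.40 and 2.48 on the FO Het arrays, and 2.48 and 2.21 on the FO WT arrays. Every MZ array was above every FO array. Within each cell type the genotypes were not ordered by the number of floxed alleles, and neighbouring groups in the order MZ Hom, MZ WT, MZ Het overlapped, as did FO Het, FO Hom and FO WT. On 3 of the 6 FO arrays Chek1 had the same value, 2.48, within 0.005, and 4 FO arrays lay within 0.5 of the minimum. The second Chek1 probe set was at 3.97 to 6.89 on the MZ arrays and 2.22 to 4.36 on the FO arrays, and the remaining 3 probe sets were at 3.95 or below on every array.

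Chek2 was at 6.82 and 7.13 on the MZ Hom arrays, 7.33 and 7.10 on the MZ Het arrays, 7.30 and 7.16 on the MZ WT arrays, 6.74 and 6.17 on the FO Hom arrays, 6.25 and 6.19 on the FO Het arrays, and 6.51 and 5.92 on the FO WT arrays. The 6 MZ arrays were again all above the 6 FO arrays, and the 3 genotypes overlapped within each cell type except MZ Hom and MZ WT, where both MZ Hom arrays lay below. Chek2, with 1 probe set, was well clear of the minimum on all arrays, unlike Chek1.

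Among the p53 targets, Gadd45a differed widely between the 2 arrays of each group. It was at 11.60 and 10.71 on the MZ Hom arrays, 8.71 and 10.41 on the MZ Het arrays, 11.77 and 10.48 on the MZ WT arrays, 10.54 and 9.28 on the FO Hom arrays, 10.65 and 9.38 on the FO Het arrays, and 8.70 and 9.83 on the FO WT arrays. The gap between the 2 arrays was 0.89 to 1.69 in the 6 groups, and the group means spanned 1.89. In the order MZ Hom, MZ WT, FO Het, FO Hom, MZ Het, FO WT, each group overlapped with its neighbours.

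Sesn1, a sestrin that restrains mTORC1 signalling under stress, was at 11.81 and 12.32 on the MZ Hom arrays, 12.96 and 12.68 on the MZ Het arrays, 12.18 and 12.53 on the MZ WT arrays, 12.72 and 12.74 on the FO Hom arrays, 13.02 and 12.50 on the FO Het arrays, and 13.37 and 12.95 on the FO WT arrays. In the order FO WT, MZ Het, FO Het, FO Hom, MZ WT, MZ Hom, the only neighbours that did not overlap were FO Hom and MZ WT. Mdm2 was at 8.66 and 8.45 on the MZ Hom arrays, 8.02 and 8.76 on the MZ Het arrays, 9.36 and 8.74 on the MZ WT arrays, 8.91 and 8.91 on the FO Hom arrays, 8.95 and 8.97 on the FO Het arrays, and 8.39 and 9.01 on the FO WT arrays. Its 2 arrays differed by 0.74 in MZ Het and 0.62 in each WT group, close to the span of 0.66 between its group means.

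Cdkn1a, which carries the p53 core shown above, was at 2.75 and 2.33 on the MZ Hom arrays, 2.30 and 2.33 on the MZ Het arrays, 2.34 and 2.33 on the MZ WT arrays, 3.81 and 3.71 on the FO Hom arrays, 3.85 and 3.71 on the FO Het arrays, and 3.61 and 3.71 on the FO WT arrays. On 4 of the MZ arrays it had one shared value, 2.33, and on 3 of the FO arrays another, 3.71, both within 0.005. The FO arrays were above the MZ arrays, but the gene passed the filter on no array, and its other probe set was within 0.5 of the minimum on all of them. With every probe set tested, its MZ minus FO difference was -1.33 in WT cells (limma adjusted p = 0.000592), between 2 levels that are both low.

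Homozygous deletion of Bcl6 called 0 of the 7 tested checkpoint genes in MZ cells and 0 of 7 in FO cells (limma, adjusted p threshold 0.05). Against the background of all tested genes, 0.0645% were called between MZ Hom and MZ WT (6 genes; 0.0107% higher, 0.0537% lower) and 0.43% between FO Hom and FO WT (40 genes; 0.376% higher, 0.0537% lower). A count of 0 among 7 beside such a background is not a result about these genes. Before adjustment, 0 of the 7 had a limma p under 0.05 in either cell type. In MZ cells 2 of 7 changes were positive, with a median of -0.17 beside -0.08 over all tested genes. In FO cells 6 of 7 were positive, with a median of 0.21 beside 0.00 over all tested genes. The average of both cell types likewise held 0 called checkpoint genes, beside 0.462% of all tested genes (0.333% higher, 0.129% lower).

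The intervals show what these arrays could and could not resolve. For Atr the change between MZ Hom and MZ WT was -0.08 (95% interval -0.43 to 0.26) and between FO Hom and FO WT 0.13 (-0.21 to 0.48). For Atm the changes were -0.17 (-0.56 to 0.22) in MZ and 0.07 (-0.31 to 0.46) in FO cells. A change of 1 log2 unit in either sensor kinase lay outside these intervals, which belong to the highest-mean probe sets. The 2 other Atr probe sets gave -0.34 ± 0.40 and 0.22 ± 0.14 (SE) in MZ cells. In FO cells they gave -0.16 ± 0.40 and 0.12 ± 0.14. The other Atm probe set gave 0.37 ± 0.23 in MZ and 0.33 ± 0.23 in FO cells. With the larger SE of the first of these Atr probe sets, the statement does not extend to it. For Chek1, in contrast, the change was 0.79 (-1.63 to 3.21) in MZ and 0.99 (-1.43 to 3.41) in FO cells, and for Gadd45a it was 0.03 (-1.74 to 1.79) in MZ and 0.65 (-1.12 to 2.41) in FO cells. The Chek1 change in MZ cells was 2.2 without MZ WT replicate 1 and -0.62 without MZ WT replicate 2. Changes of more than 2-fold in either direction lay within the intervals of Chek1 and Gadd45a.

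The remaining 3 tested genes lay between these extremes. The 2 MZ Hom arrays of Mdm2 were both below the MZ WT arrays, with a change of -0.50 ± 0.31 (SE; 95% interval -1.20 to 0.21; limma adjusted p = 0.812). Without MZ WT replicate 1, the array with the large Gapdh difference, the Mdm2 change was -0.18. The change between FO Hom and FO WT was 0.21 (-0.50 to 0.92). Another Mdm2 probe set gave 0.26 ± 1.16 in MZ and 0.80 ± 1.16 in FO cells. The signs of the 2 probe sets differed in MZ cells, but the SE of this probe set was larger than either of its changes. Chek2 was likewise lower on both MZ Hom arrays than on either MZ WT array, by a change of -0.26 ± 0.26 (limma adjusted p = 0.857), and its FO change was 0.24 ± 0.26.

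Sesn1 was the checkpoint gene with the smallest p for homozygous deletion in FO cells and in the average of both cell types. Both FO Hom arrays lay below both FO WT arrays, with a change of -0.43 ± 0.26 (95% interval -1.03 to 0.17; limma adjusted p = 0.900). The MZ change was -0.29 ± 0.26, and the average of both cell types -0.36 ± 0.19 (limma adjusted p = 0.621). Of the 3 other Sesn1 probe sets, 2 gave negative values in both cell types, at -0.44 and -0.61 in MZ and -0.12 and -0.16 in FO cells, and the remaining one gave 0.62 in MZ and -0.31 in FO cells. Over the 7 genes, 2 did not overlap between Hom and WT in each cell type, namely Chek2 and Mdm2 (both lower) in MZ cells, and Atr (higher) and Sesn1 (lower) in FO cells. Of all tested genes, 31.2% did not overlap between MZ Hom and MZ WT and 33.9% between FO Hom and FO WT.

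**Figure D2:**
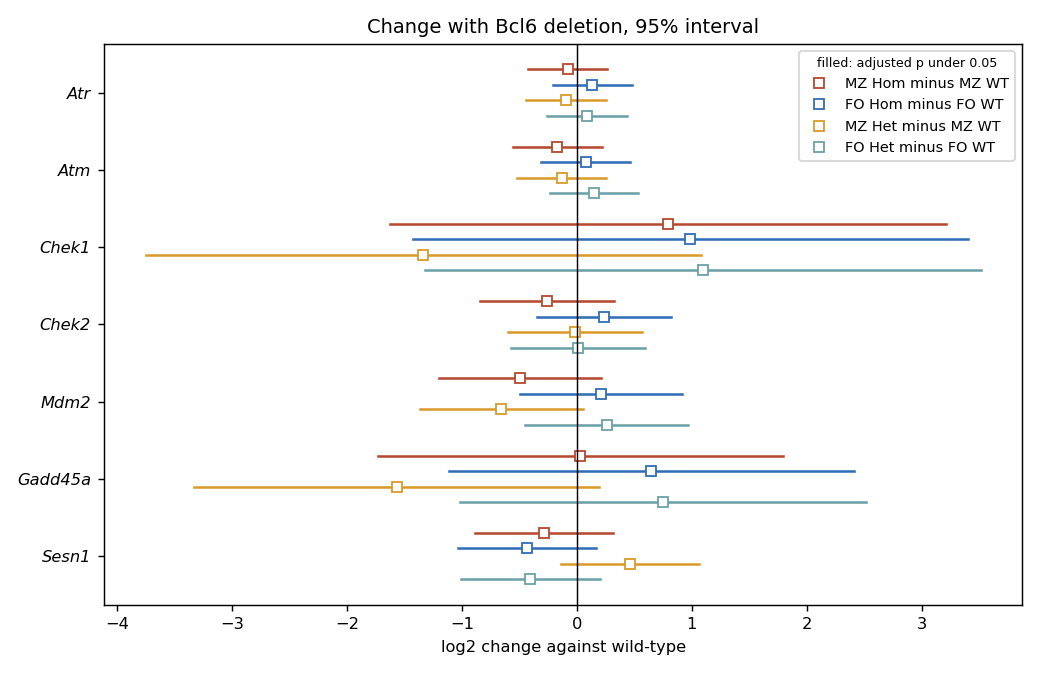
Log2 change against WT (horizontal axis) for the 7 tested checkpoint genes, with 95% intervals from limma, for MZ Hom, FO Hom, MZ Het and FO Het. All symbols are open because no adjusted p was under 0.05; the intervals are narrow for Atr and Atm and reach beyond 1 in both directions for Chek1.

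Loss of 1 allele gave the same count. Between MZ Het and MZ WT 0 of 7 checkpoint genes were called by limma (background 0.0107%), and between FO Het and FO WT 0 of 7 (background 0%, with 184 of all tested genes under 0.05 before adjustment). Before adjustment, 0 of the 7 were under 0.05 in both comparisons. The largest of these changes was that of Gadd45a in MZ cells, where both MZ Het arrays lay below both MZ WT arrays. Its change was -1.57 ± 0.77 (95% interval -3.33 to 0.19; limma adjusted p = 0.792), and -0.72 without MZ Het replicate 1. The Chek1 values had opposite signs in the cell types, at -1.34 ± 1.06 in MZ and 1.09 ± 1.06 in FO cells, and the MZ value was 0.07 without MZ WT replicate 1.

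The contrasts between Hom and Het cells address the second allele. Between MZ Hom and MZ Het 0 of 7 were called (background 0.0322%; 0.0107% higher, 0.0215% lower), and between FO Hom and FO Het 0 of 7 (background 0.0752%; 0.0645% higher, 0.0107% lower). Before adjustment 1 of 7 in MZ and 0 of 7 in FO cells had a limma p under 0.05. It was Sesn1, which was lower on both MZ Hom arrays than on either MZ Het array, by a change of -0.75 ± 0.26 (95% interval -1.35 to -0.15; limma adjusted p = 0.834). Chek1 and Gadd45a were higher on both MZ Hom arrays than on either MZ Het array, by changes of 2.13 ± 1.06 and 1.60 ± 0.77 (limma adjusted p = 0.901 for each). These 3 of 7 genes did not overlap between MZ Hom and MZ Het, as did 38.8% of all tested genes. In FO cells the changes were -0.03 for Sesn1, -0.11 for Chek1 and -0.10 for Gadd45a.

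The effect of homozygous deletion was compared between the cell types directly. The difference between the MZ and the FO change was called for 0 of 7 checkpoint genes by limma (background 0.0107%), and 0 of 7 had a p under 0.05 before adjustment. Its value was -0.70 ± 0.44 for Mdm2 and -0.50 ± 0.36 for Chek2 (limma adjusted p = 0.975 for each), and -0.62 ± 1.09 for Gadd45a.

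Between the cell types themselves, checkpoint genes were called in MZ against FO cells. The lowest value was 2.2192 on every MZ array and 2.2126 on every FO array, so a separate normalization of each cell type, which the labels do not describe, and the cell type itself cannot be told apart. Over all tested genes the median difference was -0.17 in Hom, -0.17 in Het and -0.12 in WT cells, and the values below are read against that shift. In WT cells Chek1 and Chek2, 2 of 7, were higher in MZ than in FO cells, where 22.2% of all tested genes were called in either direction and 10.7% as higher, 11.5% as lower. In Het cells 1 of 7, Chek2, was higher (background 23.2% in either direction, 9.94% higher, 13.3% lower), and in Hom cells 0 of 7 were called (background 19.1%; 8.27% higher, 10.8% lower; 2 of 7 with a limma p under 0.05 before adjustment). These counts are near the background, and nothing particular to the checkpoint genes as a group is read from them.

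Chek2 gave the difference with the smallest p. It averaged 7.23 ± 0.10 on the MZ WT arrays and 6.21 ± 0.41 on the FO WT arrays (SD, n = 2 each), a difference of 1.02 ± 0.26 (SE; limma adjusted p = 0.0224). In Het cells it averaged 7.22 ± 0.17 in MZ and 6.22 ± 0.04 in FO (SD, n = 2 each), a difference of 0.99 ± 0.26 (limma adjusted p = 0.0243). In Hom cells the difference was 0.52 ± 0.26 (95% interval -0.06 to 1.10, limma adjusted p = 0.208), with both MZ Hom arrays above both FO Hom arrays. Of all tested genes, 63.7% did not overlap between MZ Hom and FO Hom. The Chek2 call was lost without FO WT replicate 2 (0.72; adjusted p = 0.131) or MZ WT replicate 1 (0.94; adjusted p = 0.0938) in WT cells, and in Het cells without any 1 of the 4 Het arrays (limma adjusted p from 0.0595 to 0.141).

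The Chek1 difference was 3.65 ± 1.06 in WT cells (95% interval 1.24 to 6.07; limma adjusted p = 0.0398), 1.22 ± 1.06 in Het cells (adjusted p = 0.440) and 3.46 ± 1.06 in Hom cells (adjusted p = 0.0539). Both FO WT arrays lay within 0.5 of the minimum, and Chek1 reached the filter level of 4 on 2 FO arrays, 1 Hom and 1 Het. The WT difference was 2.25 without MZ WT replicate 1, the array with the large Gapdh difference, and no longer called (limma adjusted p = 0.206). The call was also lost without either FO WT array (adjusted p = 0.117 and 0.141) or either MZ Het array (0.063 each), and the Hom difference was called without either MZ WT array (0.0256 each). The difference in WT cells was 3.38 for the second Chek1 probe set (limma adjusted p = 0.0353 where every probe set was tested).

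A comparison of all 6 MZ with all 6 FO arrays, averaged over the genotypes, was chosen after seeing the data. It called 3 of 7 checkpoint genes, where 44.5% of all tested genes were called (16.2% higher, 28.2% lower). Chek1 was higher by 2.78 ± 0.61 (limma adjusted p = 0.00624) and Chek2 by 0.84 ± 0.15 (adjusted p = 0.00188), in 6 of 6 MZ arrays above all FO arrays for both genes. Of all tested genes, 28.4% did not overlap between the 6 and 6 arrays. Without each array in turn Chek1 stayed between 2.31 and 3.25 (limma adjusted p from 0.00197 to 0.0192) and Chek2 between 0.74 and 0.94 (0.0015 to 0.00757), and with the arrays centred or quantile normalized the values were 2.94 and 2.59 for Chek1, and 0.88 for Chek2 under quantile normalization, with both genes called under both. If MZ and FO cells came from the same mice, these p-values treat paired samples as independent.

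Sesn1 was the third gene called in that comparison, lower by -0.47 ± 0.15 (limma adjusted p = 0.0338), but its arrays overlapped and the all-gene median was -0.17. It was -0.31 with the arrays centred (limma adjusted p = 0.178) and -0.26 with quantile normalization (adjusted p = 0.261), and the call was lost without any 1 of FO WT replicate 1, FO Het replicate 1, either FO Hom array, MZ WT replicate 1, MZ Het replicate 2 or MZ Hom replicate 1 (0.0699 to 0.0855). The other 3 Sesn1 probe sets gave -0.13, -0.09 and -0.33. Gadd45a differed by 0.89 ± 0.45 (limma adjusted p = 0.139), Mdm2 by -0.19 ± 0.18, Atm by 0.10 ± 0.10 and Atr by -0.09 ± 0.09, none of them called. Atm was called after quantile normalization (0.31, limma adjusted p = 0.0233). The 2 other Atr probe sets gave -0.53 ± 0.23 and -0.20 ± 0.08 (limma adjusted p = 0.0971 and 0.0808 where every probe set was tested).

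**Figure D3:**
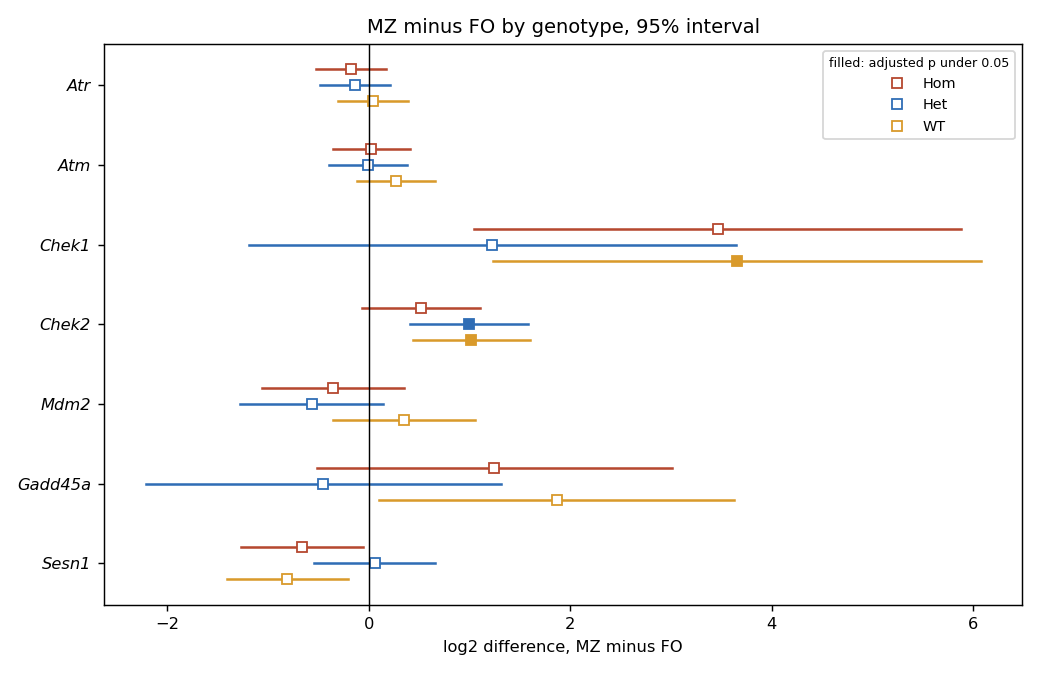
Difference between MZ and FO cells in log2 units (horizontal axis) for the 7 tested checkpoint genes in Hom, Het and WT mice, with 95% intervals from limma; filled symbols have an adjusted p under 0.05. Chek1 is filled in WT cells and Chek2 in Het and WT cells, and the other symbols are open.

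Chek1 and Gadd45a, the 2 tested genes with the widest range of group means (4.45 and 1.89), were set beside the genes whose group means were most like theirs. Likeness was the root mean square difference over the 6 group means after each gene's own mean was subtracted. Nearest to Chek1 were Cdc6 (0.22 log2 units), a replication licensing factor, Dtl (0.26), a substrate adaptor of a replication-coupled ubiquitin ligase, and Kif23 (0.26), a kinesin of cytokinesis. Nearest to Gadd45a were Ciart (0.18), a circadian repressor, Cks2 (0.22), a subunit of cyclin-dependent kinases, and Pim1 (0.25), a serine/threonine kinase. These likenesses describe 6 group means and were not tested.

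Markers of dividing cells varied over the arrays beside Chek1. The mean of Mki67, Top2a and Birc5, the 3 of 4 listed proliferation genes with a probe set, was 10.91 and 9.38 on the MZ Hom arrays, 8.29 and 7.56 on the MZ Het arrays, 9.93 and 8.09 on the MZ WT arrays, 6.61 and 4.91 on the FO Hom arrays, 5.08 and 4.34 on the FO Het arrays, and 6.04 and 3.55 on the FO WT arrays. The 2 arrays highest in this mean, MZ Hom replicate 1 and MZ WT replicate 1, were also the 2 highest in Chek1, and all MZ arrays were above all FO arrays in both. Birc5 was within 0.5 of the minimum on 1 array and the other 2 markers on none. Chek1 was higher on replicate 1 than on replicate 2 in 6 of 6 groups, by 0.01 to 2.82. The part of proliferating cells, of RNA quality, or of the neutrophil, macrophage and plasma cell markers given above, in the Chek1 differences was not tested. In bulk RNA a larger share of dividing cells and more Chek1 RNA per cell cannot be told apart.

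Immediate early genes varied over the arrays beside Gadd45a. The mean of 8 such genes, among them Fos, Jun and Egr1, which respond within minutes to handling and stimulation, was 12.02 and 10.64 on the MZ Hom arrays, 8.06 and 10.49 on the MZ Het arrays, 11.39 and 11.04 on the MZ WT arrays, 12.40 and 11.74 on the FO Hom arrays, 12.27 and 11.56 on the FO Het arrays, and 9.47 and 12.92 on the FO WT arrays. The 2 arrays lowest in this mean, MZ Het replicate 1 and FO WT replicate 1, were also the 2 lowest in Gadd45a, at 8.71 and 8.70. The 2 arrays of a group went the same way in both measures in all 6 groups, Gadd45a being higher on replicate 1 in 4 groups and lower in MZ Het and FO WT. This held for the mean and not for each gene. In MZ WT, Jun, Junb and Ier2 were lower on replicate 1, and Fos, Fosb, Egr1, Dusp1 and Nr4a1 higher. FO WT replicate 2, the array highest in the mean at 12.92, had Gadd45a at 9.83, below all but 1 of the MZ arrays. None of the 8 genes was near the minimum on any array. The 4 groups in which Gadd45a was higher on replicate 1 (MZ Hom, MZ WT, FO Hom and FO Het) were also the 4 whose replicate 1 held neutrophil markers, at a mean of 6.22 to 8.72 against 2.32 to 2.38 on the other arrays. The part of either marker list in the Gadd45a values was not tested.

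**Figure D4:**
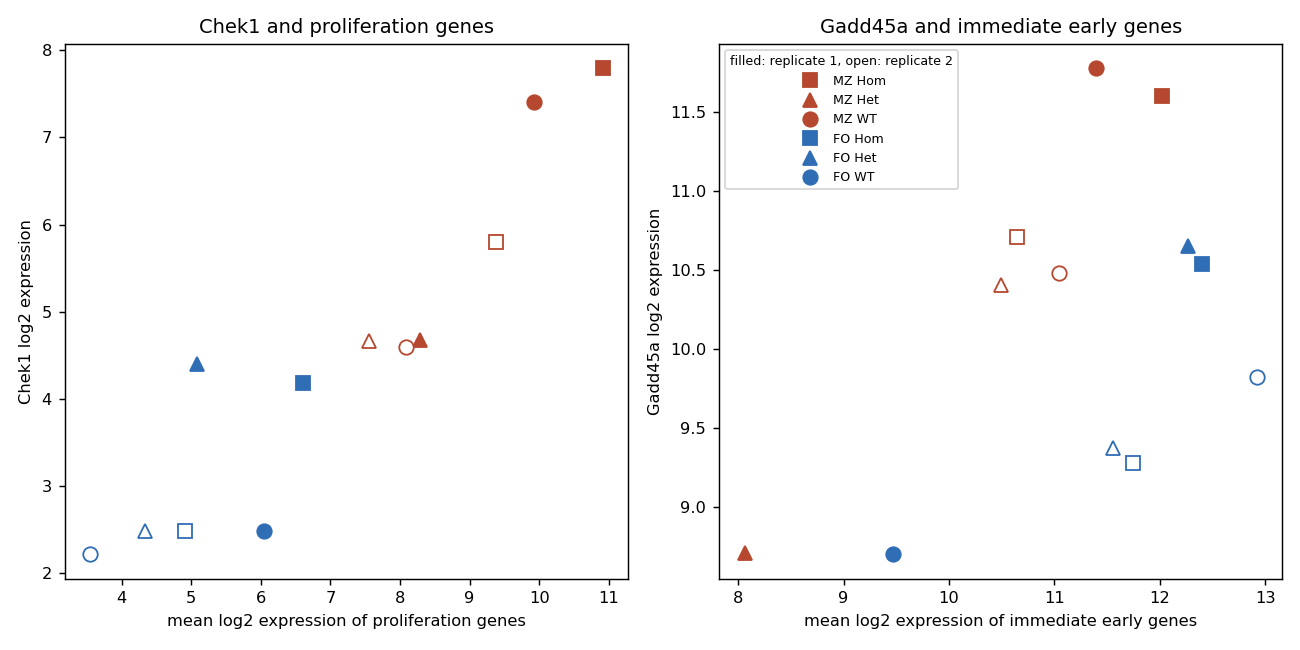
Left, Chek1 log2 expression against the mean log2 expression of 3 proliferation genes; right, Gadd45a against the mean of 8 immediate early genes, on 12 arrays (MZ red, FO blue; squares Hom, triangles Het, circles WT; filled is replicate 1, open replicate 2). MZ Hom and MZ WT replicate 1 lie highest in the left panel, and MZ Het and FO WT replicate 1 lie lowest in the right panel.

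The wider pathway was followed through 5 lists with 62 tested genes. For homozygous deletion 0 genes of any list were called by limma in either cell type. Among p53 target genes, 17 of 24 were tested, with a median change of -0.06 in MZ and -0.03 in FO cells. For 20 of 20 sensors and mediators it was -0.02 and -0.06, for 10 of 11 p53 regulators -0.09 and 0.09, and for 5 of 8 paralogs of the checkpoint genes 0.09 and -0.38. The median of all tested genes was -0.08 in MZ and 0.00 in FO cells.

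The 11 tested cell cycle targets of the checkpoint, of 12 listed, had a median change of 0.44 in MZ cells and 0.00 in FO cells. Of these, Cdc25c, Plk1, Ccna2 and E2f1 reached the filter level on no FO array, so the FO median rests partly on values below it. They entered the test through the MZ arrays, so the counts of this list are a description only. In MZ cells 9 of 11 values were positive, beside 38.83% of all tested genes. Of all 9307 tested genes 566 had a limma p under 0.05 before adjustment, and of the 11 genes 3 did. These were Plk1, a mitotic kinase (1.46 ± 0.42; limma adjusted p = 0.669), Cdc25a, a CDK-activating phosphatase (0.95 ± 0.36; adjusted p = 0.801), and E2f1, a transcription factor of the G1/S transition (0.39 ± 0.14; adjusted p = 0.801). Plk1 was at 6.20 and 4.69 on the MZ Hom arrays, against 4.11 and 3.85 on the MZ WT arrays, close to the filter level of 4. Cdc25a was at 9.03 and 8.95 on the MZ Hom arrays, against 7.35 and 8.72 on the MZ WT arrays. The lower of these, MZ WT replicate 1, was the array with the large Gapdh difference. Without 1 array at a time the median of this list ranged from 0.21, without MZ WT replicate 2, to 0.81, without MZ Hom replicate 2. The proliferation mean was 10.91 and 9.38 on the MZ Hom arrays against 9.93 and 8.09 on the MZ WT arrays, and its part was not tested.

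Fas, a death receptor induced by p53, had the smallest p of all listed genes for homozygous deletion in both cell types. It was at 5.76 and 6.05 on the MZ Hom arrays, 6.32 and 6.75 on the MZ Het arrays, and 6.76 and 7.15 on the MZ WT arrays. In FO cells it was at 4.26 and 5.05 on the Hom arrays, 5.36 and 5.44 on the Het arrays, and 5.82 and 5.95 on the WT arrays. Both Hom arrays were below both Het arrays, and both Het arrays below both WT arrays, in each cell type. The change was -1.05 ± 0.28 in MZ (limma adjusted p = 0.626) and -1.23 ± 0.28 in FO cells (adjusted p = 0.168), past the threshold in neither. Since cells that bound anti-CD95 were removed before the sort, Fas was measured in cells selected against its product.

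Small p-values in FO cells, none past the threshold, were also those of Gadd45g, a paralog of Gadd45a (-0.91 ± 0.26; limma adjusted p = 0.308), Cdc25b, a phosphatase that promotes mitotic entry (-0.91 ± 0.31; adjusted p = 0.502), and the checkpoint clamp loader Rad17 (-0.48 ± 0.21; adjusted p = 0.714). In each of these 3 both FO Hom arrays lay below both FO WT arrays. In MZ cells Sirt1, a deacetylase of p53, was also under 0.05 before adjustment (-0.42; limma adjusted p = 0.801). The MZ change was 0.09 for Gadd45g, -0.66 for Cdc25b and -0.41 for Rad17. Plk2, a p53-induced kinase, varied widely within groups, at 11.82 and 8.93 on the FO Hom arrays, 11.31 and 7.72 on the FO Het arrays and 5.44 and 8.86 on the FO WT arrays, a change between FO Hom and FO WT of 3.22 ± 2.09 (limma adjusted p = 0.916).

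Between MZ and FO cells, 8 of the 62 tested list genes were called as higher and 6 as lower in all 3 genotypes, where 6.75% and 7.04% of all tested genes were. Of the 8, the p53 target Sesn2, the CHK1 adaptor Clspn, cyclin A2 (Ccna2) and E2f1 reached the filter level of 4 on no FO array. They entered the test through the MZ arrays where they are high, so their calls are a description only. Among the 55 list genes at that level on 2 arrays or more of each cell type, 4 were higher and 6 lower in all 3 genotypes, beside 3.72% and 5.96% of the 8625 genes measured so, a restriction chosen after seeing the data. These 4 were the p53 targets Fas and Zmat3, the Sesn1 paralog Sesn3 and the CDK1-inhibiting kinase Wee1. Those lower were Pml, a p53 target of nuclear bodies, the mediators Rad17 and Mdc1, the deacetylase Sirt1, Cdc25b and Gadd45g. Of these 10 genes, Wee1, Cdc25b and Gadd45g were called in all 3 genotypes under each of 14 alternatives of scaling or of leaving out 1 array, chosen after seeing the data, and the other 7 lost the call in at least 1. Zmat3 kept the call in 13 of the 14 alternatives, Mdc1 in 8, Pml in 7, Fas, Sirt1 and Sesn3 in 6 each, and Rad17 in 2. Called in 1 or 2 genotypes were Rad9a (-1.21 in Hom, -1.75 in WT), a subunit of the checkpoint clamp, Atrip (-1.21 in Hom), the partner of ATR, and Tipin (0.67 in Hom), a fork protection factor. So were Trp53inp1 (0.72) and Polk (1.06), both p53 targets, and the acetyltransferase Ep300 (-0.82) in Het cells, and in WT cells the phosphatase Ppm1d (-0.85), the CDK1-inhibiting kinase Pkmyt1 (-0.99) and Cdkn1b (-1.23), a paralog of Cdkn1a. The WT differences include MZ WT replicate 1, the array with the large Gapdh difference. On MZ WT replicates 1 and 2, Rad9a was at 6.55 and 7.23 and Cdkn1b at 10.26 and 10.93.

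E2f1 was at 5.89 and 5.93 on the MZ Hom arrays, 5.53 and 5.39 on the MZ Het arrays, 5.51 and 5.53 on the MZ WT arrays, and 3.53 to 3.71 on the FO arrays, all below the filter level. Wee1 was at 7.87 and 7.13 on the MZ Hom arrays, 7.05 and 6.81 on the MZ Het arrays, 7.07 and 7.05 on the MZ WT arrays, and 5.03 to 5.46 on the FO arrays. Cdc25b, which acts against Wee1, was at 6.88 and 6.32 on the MZ Hom arrays, 6.39 and 6.70 on the MZ Het arrays, 7.51 and 7.01 on the MZ WT arrays, and 8.23 to 9.68 on the FO arrays. All MZ arrays were above all FO arrays for E2f1 and Wee1, and below them for Cdc25b.

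E2f1 had one value, 3.53, on 5 of the 6 FO arrays within 0.005, and Gadd45g one value, 4.90, on 5 of the 6 MZ arrays. The MZ minus FO difference of Gadd45g, at -3.19 in Hom, -3.77 in Het and -4.19 in WT cells, rests on MZ values that were nearly all the same. Over all tested genes at least 3 arrays shared a value in 5.36% for MZ and 7.03% for FO. Ccna2 and Plk1 had one value on 4 of the 6 FO arrays, at 3.06 and 3.03, and Sesn2 and Clspn on 3 of the 6, at 2.65 and 2.73. Atrip had one value, 4.94, on FO WT replicate 2, both FO Het arrays and FO Hom replicate 1. It was at 3.80 on both MZ Hom arrays, below the filter level, so its call in Hom cells lies between low values.

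By list, counts are given over the genes at the filter level in both cell types, beside all 8625 such genes, of which 4.85%, 6.75% and 7.34% were called as higher and 9.7%, 12.5% and 10.5% as lower in Hom, Het and WT cells. Of 15 p53 targets, 2, 4 and 2 were higher and 1, 1 and 1 lower in Hom, Het and WT cells. Of 19 sensors and mediators, 1, 0 and 0 were higher and 4, 2 and 3 lower, and of 10 p53 regulators 0 were higher and 1, 2 and 2 lower. Of 7 cell cycle targets, 3, 1 and 1 were higher and 1, 1 and 2 lower, with median differences of 1.02, 0.66 and 0.39 beside -0.19, -0.19 and -0.13 over all such genes. Of 4 paralogs, 1, 1 and 1 were higher and 1, 1 and 2 lower. Nothing particular to a list is read from counts this small.

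Single arrays moved the counts over all tested list genes. These include genes that entered the test through the MZ arrays only, among them Sesn2, Clspn, Ccna2, E2f1, Plk1 and Cdc25c, so the counts are a description only. With all arrays, 8.27%, 9.94% and 10.7% of all tested genes were called as higher in Hom, Het and WT cells. The shares called as lower were 10.8%, 13.3% and 11.5%. Of 17 p53 targets 5 were higher in Het cells, against 1 without FO Het replicate 2 and 2 without FO Het replicate 1 or either MZ Het array. In Hom cells 3 were higher, against 1 without FO Hom replicate 1. Over the 14 alternatives the cell cycle targets counted 4 to 8 higher in Hom, 2 to 6 in Het and 2 to 6 in WT cells, of 11, and the sensors and mediators 0 to 4, 0 to 3 and 1 to 3 lower, of 20.

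In Hom cells alone, Cdk1 (3.97 ± 0.78, limma adjusted p = 0.00815) and Ccne1 (1.35 ± 0.40, adjusted p = 0.0475) were called among the cell cycle targets. Cdk1 was at 8.75 and 6.98 on the MZ Hom arrays and at 4.14 and 3.65 on the FO Hom arrays. Of the FO arrays, only FO WT replicate 1 and FO Hom replicate 1 reached the filter level for Cdk1. Plk1, called as well, was at 6.20 and 4.69 on the MZ Hom arrays and 3.03 to 3.07 on the FO arrays, and reached the filter level through MZ arrays only. The difference between the MZ and the FO change with homozygous deletion, which is also the Hom minus WT change of the MZ minus FO difference, was called by limma for 0 of the 11 cell cycle targets (background 0.0107%). Of the 11, 10 were positive, beside 43% of all tested genes, and the median was 0.37 beside -0.06. Before adjustment 2 had a limma p under 0.05, as did 348 of the 9307 tested genes. Among the 11, Cdc25c, Plk1, Ccna2 and E2f1 reached the filter level on no FO array and entered the test through the MZ arrays. Their FO changes come from values below that level, so this difference largely repeats their MZ change. The count and median are therefore a description only. Proliferation markers were higher on all MZ arrays than on all FO arrays, as given above, and their part in these counts was not tested.

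**Figure D5:**
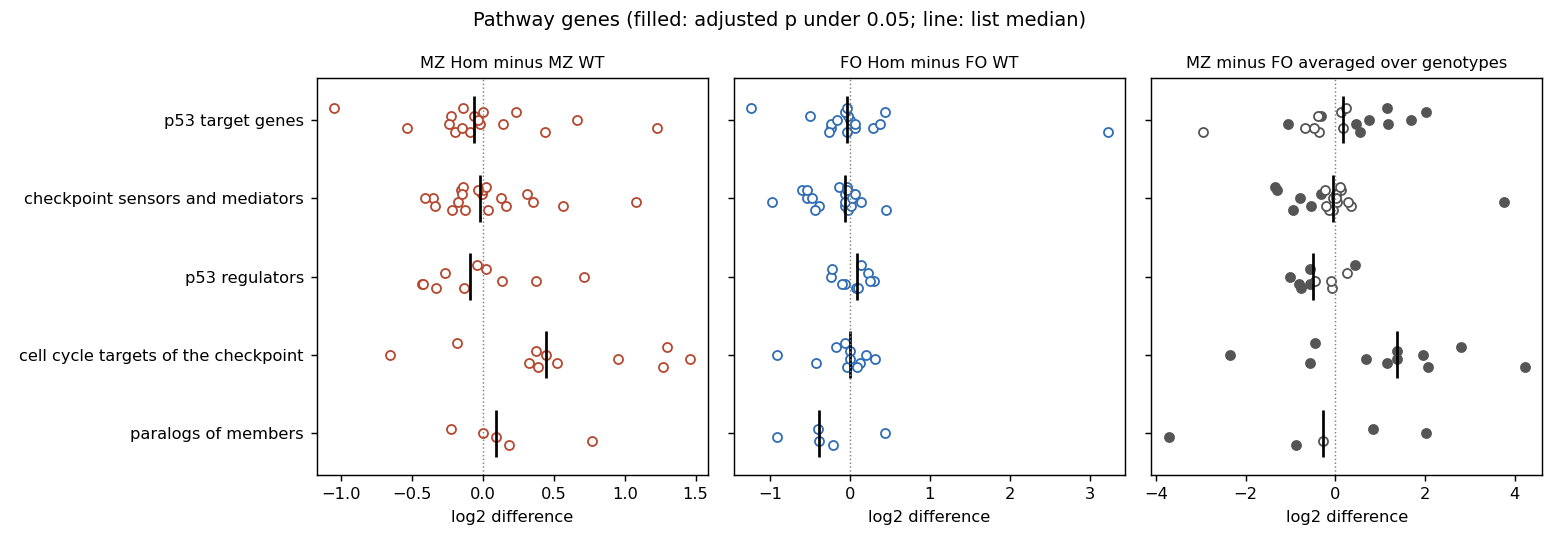
Log2 differences (horizontal axes) of the tested genes of 5 pathway lists (rows) for MZ Hom minus MZ WT, FO Hom minus FO WT, and MZ minus FO averaged over genotypes; each circle is a gene, filled where the limma adjusted p is under 0.05, and the line is the median of the list. Each panel includes 7 genes that reached the filter level on no FO array. No circle is filled in the 2 deletion panels, and the cell cycle median lies at 0.44 in MZ and 0.00 in FO cells.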

How the data were processed

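Expression was measured on 12 Affymetrix arrays. The authors deposited log2 values, 1 for each probe set and array, from GCRMA per the submitters' processing notes, with no version stated. GCRMA corrects background, normalizes quantiles and summarises probes, and low values lay near a common minimum. Of 45101 probe sets, 34958 had 1 gene symbol, 932 several and 9211 none listed; 34754 matched a mouse RefSeq gene table. Each gene took its highest-mean probe set (18194 genes), and the 9307 that reached 4 on the log2 scale on 2 arrays or more were tested. Means of 6 groups were fitted in 1 model over all arrays (limma 3.58.1, R 4.3.3, two-sided, Benjamini-Hochberg within each comparison, threshold 0.05), which was tested on simulated data. Values are log2 units, ± SD for groups and ± SE for differences; the number of arrays limits the precision, and depth does not apply. Named genes were all the checkpoint genes, pathway genes called in a planned comparison or otherwise up to 3 per list with the smallest p for homozygous deletion, and the 3 genes nearest in pattern. The genes and lists were chosen with earlier results of these data known. Alternatives covered filter, probe set, variance moderation, array weights, scaling, arrays in the model, a replicate block and leaving out each array. Probe sets with several symbols or none were left out.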

Additional observations from a re-analysis of the deposited data

How the results depend on the processing

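In the comparisons of genotypes, and of the deletion effect between cell types, the count of called checkpoint genes was 0 under every alternative run. Between MZ and FO cells the counts moved. In WT cells, 2 as reported, the count was 4 without the filter and with all probe sets tested (Sesn1 and Cdkn1a added), 3 with a variance trend (Sesn1 added, limma adjusted p = 0.0447), 1 after quantile normalization, 0 with array weights, 0 with the 4 WT arrays alone, and 0 to 2 without each array in turn (0 without MZ WT replicate 1 or FO WT replicate 2). In Het cells, 1 as reported, it was 2 without the filter and with all probe sets tested, and 0 to 1 without each array in turn (0 without any 1 of the 4 Het arrays). In Hom cells, 0 as reported, it was 1 without the filter, with all probe sets tested, with array weights and with arrays centred, and 0 to 1 without each array in turn (1 without either MZ WT array). The cause of these shifts was not tested. The replicate numbers gave no pairing shared by all 6 groups. The differences between replicates 1 and 2 correlated from -0.26 to 0.77 over the 15 pairs of groups. The 6 pairs among FO Het, FO Hom, MZ WT and MZ Hom lay between 0.45 and 0.77, so these 4 groups shared part of the difference between replicates. With the replicate block the Hom count was 1 (Chek1, limma adjusted p = 0.0166) and no other count moved. No called value changed sign. Of the counts, 23 moved by more than 1.5 times and 259 did not. All 23 belong to the MZ minus FO comparisons within a genotype. The 259 include every count of the genotype comparisons, which stayed at 0. They also include the MZ minus FO comparison averaged over genotypes, where Sesn1 lost its call under several alternatives. Levels near the minimum, as for Chek1 in FO cells and Cdkn1a, hold little signal over background.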
